A study of Homo sapiens with 12 samples.

Results

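tRNA-His-GTG-1-4, a nuclear-encoded tRNA that carries histidine and reads its codons with the anticodon GUG, was described by every entry of the U251 site lists whose name starts with tRNA-His-GTG. This gave 6 cytosines of 1 tRNA, out of 59 cytosines in 15 tRNAs, with 32 entries over the libraries. The members were selected on their own readout, since a site entered only where its coverage and methylation level put it on a list, and those values are given as a description. No His entry had fewer than 31 reads or a level under 10.0%, and over all tRNAs the lists began at 30 reads and 10.0%. A site missing from a library therefore has an unknown level there.

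The 6 libraries came from U251, an established human glioblastoma line, and carried the labels NC and Si, with 3 libraries each. NSUN3 knockdown and wild-type cells are what the submitters' design text compares, and Si was taken to mean the knockdown. Neither the sequence of a silencing RNA nor separate cultures for the replicates are named in the labels, so the spread between libraries may be technical. In all libraries the small RNA was treated with the demethylase AlkB before bisulfite conversion. The 6 libraries of a second line, T98G, were not analysed here.

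After bisulfite treatment a cytosine without the mark is sequenced as T, and the methylation level is the share of reads that kept C. Transfer RNAs fold into an acceptor stem, a D arm, an anticodon arm, a short variable loop and a T arm. Methylated cytosines are known at the junction of variable loop and T stem, placed there by NSUN2, in the anticodon loop, placed by TRDMT1, and at the end of the acceptor stem of threonine and cysteine tRNAs, placed by NSUN6. NSUN3 is known for the wobble cytosine of the mitochondrial tRNA for methionine. tRNA-His itself is known for an extra guanosine added to its 5′ end, which the enzyme that charges it recognises, and for queuosine at its wobble base.

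The sequence is shown because the position of each site carries the description that follows. It is the gene sequence in the deposited lists, and the 6 listed cytosines are in capitals.

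tRNA-His-GTG-1-4: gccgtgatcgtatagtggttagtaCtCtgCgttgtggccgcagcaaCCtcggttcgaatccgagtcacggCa

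The gene lies on chromosome 1 from 148302734 to 148302805 on the minus strand of hg38, and it matched TRH-GTG1-4 in the RefSeq table of GRCh38.p14 by chromosome, start and end. The lists name 9 gene copies with this sequence, so the reads cannot be assigned to 1 locus. In standard numbering, with the anticodon at 34 to 36 and the last base as 73, the listed cytosines are positions 25, 27, 30, 48, 49 and 72. Counted from the 5′ end, the last 3 are bases 47, 48 and 71. Position 25 closes the stem of the D arm opposite position 10, positions 27 and 30 lie in the anticodon stem opposite 43 and 40, position 48 is the last base of the variable loop, position 49 opens the T stem opposite 65, and position 72 pairs with position 1. The gene holds 19 cytosines. Of the 6 listed ones, 5 face a G in a stem and 1, position 48, is unpaired, and of the 13 unlisted ones 9 face a G. The unlisted ones include position 38, the anticodon loop position that TRDMT1 is known to methylate in other tRNAs, and positions 39 and 41 on the other strand of the anticodon stem.

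Position 49 had the highest level among the listed cytosines of the tRNA in every library. Coverage was 94, 97 and 88 reads in NC, with levels of 91.5%, 83.5% and 92.0%. In Si it was 44, 36 and 41 reads, with levels of 84.1%, 72.2% and 80.5%. The highest Si library lay just above the lowest NC library, so the groups overlapped.

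Position 48, the next base upstream, was low throughout. It stood at 18.1%, 20.8% and 24.4% in NC and at 21.4%, 11.8% and 20% in Si. Within a library the level at position 48 minus that at 49 averaged -64.6 ± 5.06 points (SD, n = 6; adjusted p = 0.0469 in an exact paired permutation test, two-sided, over 3 pairs of positions), and it was lower in 6 of 6 libraries. The unadjusted p of 0.0312 is the smallest that 6 pairs allow. With any 1 library left out, 5 pairs cannot go below 0.0625.

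The bases around these neighbours are shown for 5 of the 8 tRNAs that have a cytosine listed at both positions. These tRNAs differ in how position 48 compares with 49. The stretches of tRNA-Gly-CCC-1-1, tRNA-Gly-CCC-2-2 and tRNA-Gly-GCC-2-1 are not shown. Each stretch runs from the 5 bases before position 49 to the 4 after it, from the gene sequences in the deposited lists, and capitals mark positions 48 and 49.
tRNA-His-GTG-1-4: gcaaCCtcgg
tRNA-Asp-GTC-1-1: gagaCCgggg
tRNA-Asp-GTC-2-5: gagaCCgggg
tRNA-Glu-TTC-2-1: gcggCCcggg
tRNA-Gly-GCC-1-1: gaggCCcggg

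Of 8 such tRNAs, 5 had a median at position 48 under 25% over the libraries that list it, and tRNA-His was one of these, with a median of 20.4% beside 83.8% at position 49. In tRNA-Asp-GTC-1-1 the medians were 15.6% at 48 and 89.6% at 49, and in tRNA-Glu-TTC-2-1, listed at 48 in 2 libraries, they were 11.9% and 97.9%. The other 3 had medians over 60% at 48, among them tRNA-Asp-GTC-2-5 with 85.7% and tRNA-Gly-GCC-1-1 with 76.7%. The stretch of tRNA-Asp-GTC-1-1 and that of tRNA-Asp-GTC-2-5 are the same letters, so these letters alone do not separate low from high levels at 48.

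**Figure D1:**
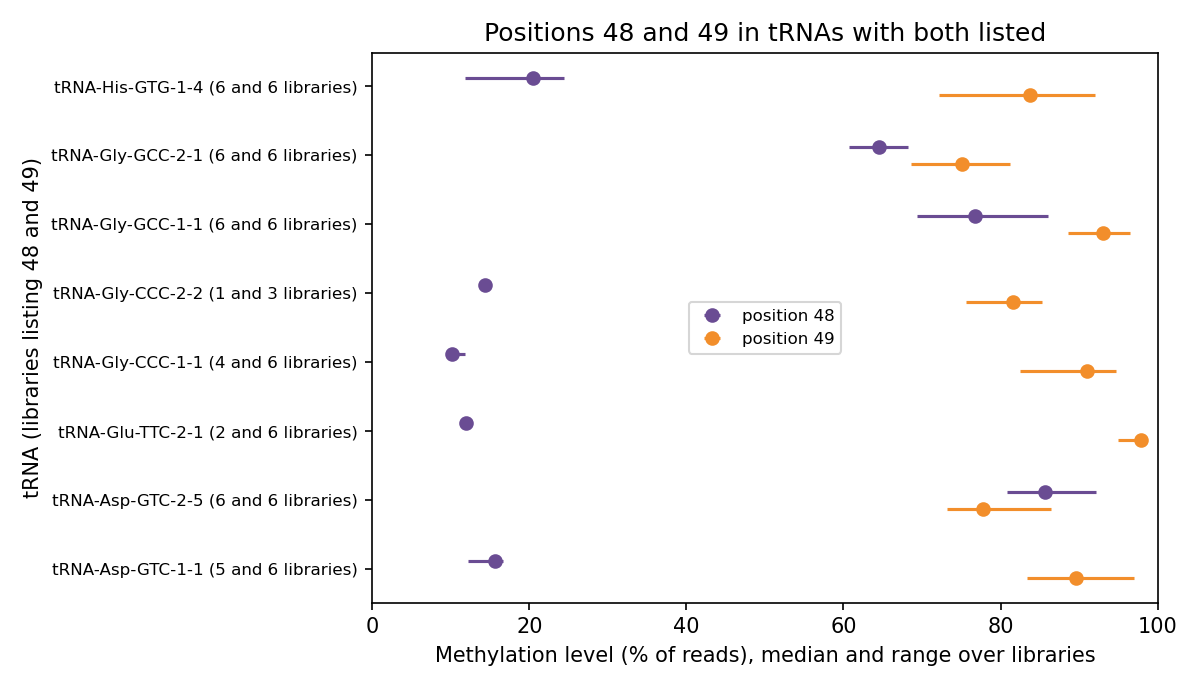
Methylation level in percent of reads at position 48 (purple) and position 49 (orange) for the 8 tRNAs with both listed. Points are medians over the libraries that list the site and bars run from the lowest to the highest library. tRNA-His-GTG-1-4 has 20.4% at 48 and 83.8% at 49.

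In the anticodon stem, position 30 was listed in all 6 libraries and varied widely among libraries of the same label. It was at 44.8%, 26.4% and 12.7% in NC over 105, 87 and 71 reads. In Si it was at 31.4%, 14.8% and 34.4% over 70, 54 and 61 reads. The NC libraries alone span the whole range of the Si libraries. The exact binomial 95% intervals of NC replicate 1 (35% to 54.8%) and NC replicate 3 (5.96% to 22.7%) do not touch. Position 30 was lower than position 49 in 6 of 6 libraries, by a mean 30 minus 49 of -56.5 ± 12.2 points (SD, n = 6; adjusted p = 0.0469, the same exact test). Against position 48 the difference was 8.00 ± 12.8 points (SD, n = 6; adjusted p = 0.188, exact), with 1 of 6 libraries in the other direction.

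Position 27, at the top of the same stem, was at 33.0% and 13.8% in NC replicates 1 and 2 and at 21.6%, 10.0% and 27.5% in Si. Position 25, the last base of the D stem, was at 32% and 15.8% in NC replicates 1 and 2 and at 21.1%, 10.9% and 26.9% in Si. Neither was listed in NC replicate 3, the library with the lowest level at position 30. In the 5 libraries that list all 3 positions, the libraries stood in the same order at 25, 27 and 30, positions 25 and 27 differed by at most 1.96 points, and position 30 exceeded 27 by 4.81 to 12.6 points. These sites share reads, so the shared order is a description and not independent evidence.

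**Figure D2:**
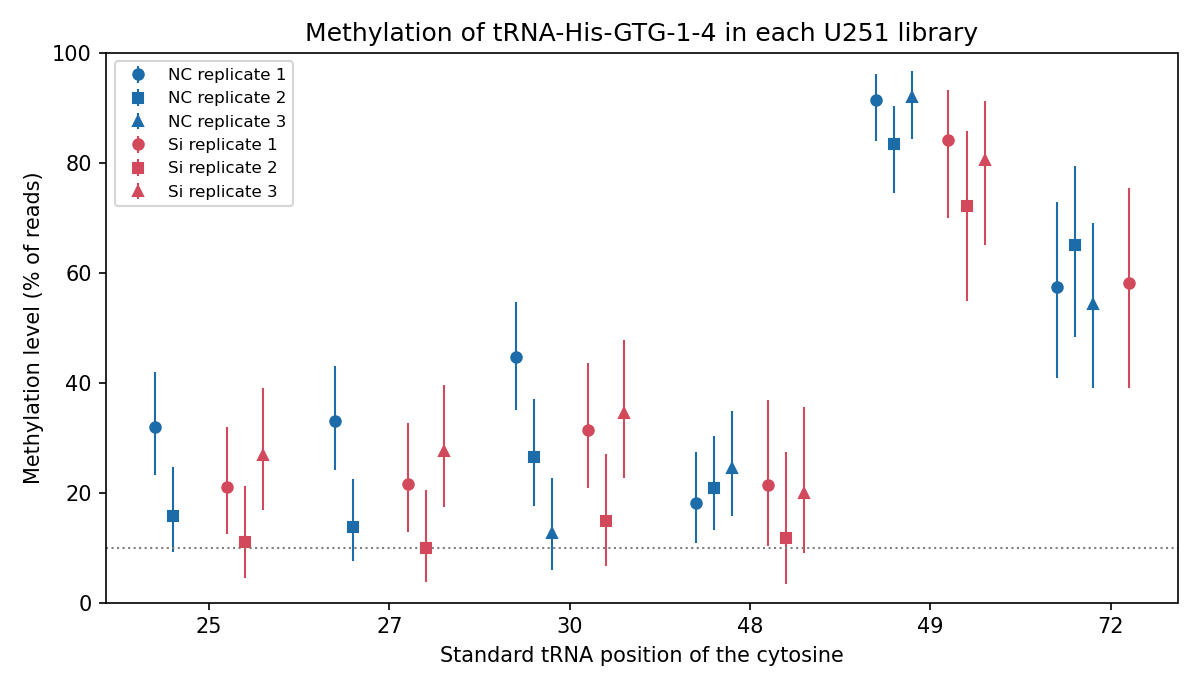
Methylation level of tRNA-His-GTG-1-4 in percent of reads at each listed position, one point per library, with NC in blue and Si in red. Bars are exact binomial 95% intervals and cover counting error only; the dotted line is the lowest listed level of 10.0%. Position 30 runs from 12.7% to 44.8%, position 49 from 72.2% to 92.0%.

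The question whether libraries of 1 label differed by more than counting error was asked of every site listed in all 3 libraries of a group, with Fisher's exact test on methylated and unmethylated reads. Of 54 site and group pairs over all tRNAs, 1 passed an adjusted p of 0.05, or 1.85%, and it was position 30 of tRNA-His in NC (adjusted p = 0.000874, Fisher's exact test, n = 3). The call was lost without NC replicate 1 and without NC replicate 3. Before adjustment, 3 of 9 tRNA-His pairs and 3 of 45 pairs of other tRNAs had p under 0.05; the 3 of tRNA-His were position 30 in NC and positions 27 and 30 in Si. The chi-square statistic over its degrees of freedom averages about 1 when only counting error acts, and single values scatter around that. At position 30 it was 10.8 in NC and 3.18 in Si. Its median was 2.19 over the 9 tRNA-His pairs and 0.622 over the 45 others, and pairs of 1 tRNA share reads. At the junction of tRNA-His, values in NC and then Si were 0.544 and 0.666 at position 48 and 2.19 and 0.876 at position 49. No junction pair of tRNA-His had an unadjusted p under 0.05. The 3 pairs of other tRNAs that did were position 50 of tRNA-Gly-GCC-2-1 in Si and, in tRNA-Thr-CGT-4-1, position 48 in Si and position 72 in NC. What the spread at position 30 comes from was not tested.

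**Figure D3:**
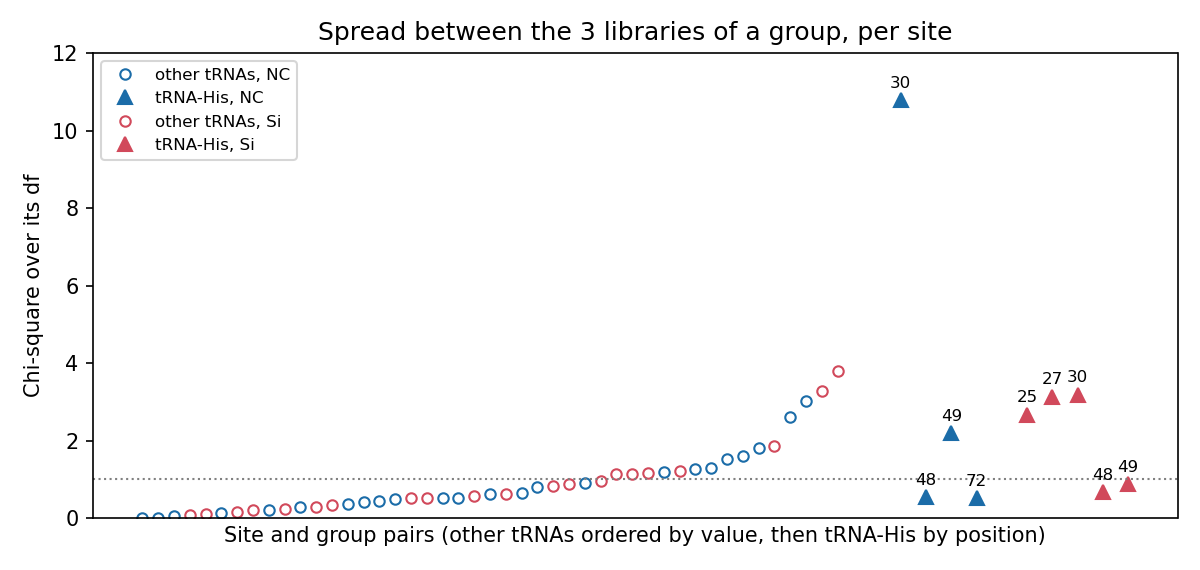
Chi-square over its degrees of freedom for the 3 libraries of a group at each site. Counting error alone gives about 1 on average (dotted line), with scatter of single values. Open circles are other tRNAs ordered by value, with no anticodon stem site among them. Filled triangles are tRNA-His with the position written above. Blue is NC and red is Si. Position 30 in NC reaches 10.8.

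Levels in the anticodon stem of other tRNAs fell into a low set and 1 tRNA as high as tRNA-His. Over 10 sites of 4 tRNAs for aspartate and glycine, 26 entries ran from 10.0% to 13.2% with a median of 10.7%. In tRNA-SeC-TCA-1-1, which carries selenocysteine, 5 entries at bases 41 and 42 of its 3′ stem strand ran from 14.3% to 41.2% with a median of 38.1%. The 11 entries of tRNA-His at positions 27 and 30 ran from 10.0% to 44.8% with a median of 26.4%. Of these, 9 lay above the highest entry of the aspartate and glycine tRNAs and 1 above the highest of tRNA-SeC. The lists begin at the lowest listed level, so lower sites are missing from each set, and the differences were not tested. Base 13 of tRNA-SeC-TCA-1-1, counted from its 5′ end, was listed in the same 5 libraries as position 27 of tRNA-His, at 29.1% and 17.1% in NC replicates 1 and 2 and at 21.1%, 15.4% and 30.5% in Si. NC replicate 1 and Si replicate 3 were thus the high libraries at both. Other bases of tRNA-SeC-TCA-1-1 showed the same libraries. Bases 12, 34 and 41 were listed in these libraries only. Bases 15, 37 and 42 were listed there and, at lower levels, in Si replicate 1. In NC replicate 1 and Si replicate 3, base 34 had 32 and 38 reads and base 41 had 35 and 42. The lists begin at 30 reads, so for a library that lacks a base, low coverage and a low level cannot be told apart. NC replicate 3 listed no base of this tRNA. The low set of aspartate and glycine tRNAs was listed in other libraries. Positions 27, 28, 29 and 31 of tRNA-Asp-GTC-2-5 were listed in NC replicates 1 and 3 and in Si replicates 1 and 2. Positions 27 and 29 of tRNA-Gly-GCC-1-1 were listed in NC replicates 1 and 3, and position 27 also in Si replicate 2. Si replicate 3 listed no site of the low set. Bases of 1 tRNA share reads, and whether something shared by the libraries lies behind the pattern of tRNA-His and tRNA-SeC was not tested.

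Position 72, which pairs with the first base, had 57.5%, 65% and 54.3% in NC over 40, 40 and 46 reads and 58.1% in Si replicate 1 over 31 reads. The single Si value lies inside the range of NC. Si replicates 2 and 3 did not list the site. Acceptor stem sites listed in other tRNAs were position 72 of tRNA-Thr-CGT-4-1 and of tRNA-Thr-CGT-2-1, with mean levels of 85.3% and 22.6% over the libraries listing them.

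The comparison of Si with NC asked which cytosines change when NSUN3 is lowered. In tRNA-His, 5 sites were listed in at least 2 libraries of each group and could be tested, and 0 of them passed an adjusted p of 0.05 in edgeR's quasi-likelihood test. Over all tRNAs 1 of 31 tested sites passed, or 3.23%. At the 3 sites listed in all 6 libraries the log2 odds ratios, Si against NC, were -0.11 at position 30, -0.26 at position 48 and -1.08 at position 49, beside a median of -0.11 over the 31, and the sign at position 30 turned with a library left out.

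Of the 5 tested sites, position 49 had the largest difference. The NC mean was 89.0% ± 4.78 and the Si mean 78.9% ± 6.09 (SD over 3 libraries), and Si minus NC was -10.1 ± 4.47 points (SE). The log2 odds ratio was -1.08 with an unadjusted p of 0.0383 and an adjusted p of 0.396 in edgeR's test. limma gave an unadjusted p of 0.0195 (adjusted 0.202) and quasi-binomial regression 0.114 (adjusted 0.723). Fisher's exact test on summed reads gave 0.0178 (adjusted 0.27), but it treats reads as replicates and leaves out the spread between libraries. Coverage at this site in Si was at most 44 reads per library, which limits what could be seen.

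The other differences were smaller than their standard errors. At position 48 the NC mean was 21.1% ± 3.18 and the Si mean 17.7% ± 5.22 (SD over 3 libraries), which differ by -3.38 ± 3.53 points (SE). At position 30 they were 28.0% ± 16.1 and 26.9% ± 10.6, which differ by -1.07 ± 11.1 points (SE), so a shift of several points in either direction could not have been seen. At positions 25 and 27 the differences over the libraries that list them were -4.30 ± 9.36 and -3.70 ± 10.9 points (SE, 2 NC and 3 Si libraries), but they depend on the listing, since NC replicate 3 lists neither. With that library at the lowest listed level the NC means would be 19.3% and 18.9%, beside Si means of 19.6% and 19.7%, so no direction can be given there. Position 72 could not be tested with 1 Si library. At 0 of the 3 tRNA-His sites listed in all 6 libraries did the levels of the groups lie apart, beside 2 of the 21 such sites over all tRNAs, or 9.52%.

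Coverage was lower in Si than in NC along the tRNA. At position 30 the NC libraries had 105, 87 and 71 reads and the Si libraries 70, 54 and 61. Position 48 had 94, 96 and 86 reads in NC and 42, 34 and 40 in Si. At position 49 they had 94, 97 and 88 reads in NC and 44, 36 and 41 in Si. All Si libraries lay below all NC libraries at these 3 positions, as they did at 6 of the 21 sites listed in all 6 libraries, or 28.6%, the 3 included. The closest libraries of the groups had 71 and 70 reads at position 30, and 88 and 44 at position 49. Coverage counts reads, so less of the tRNA, less of 1 part of it and poorer recovery of its reads cannot be told apart.

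**Figure D4:**
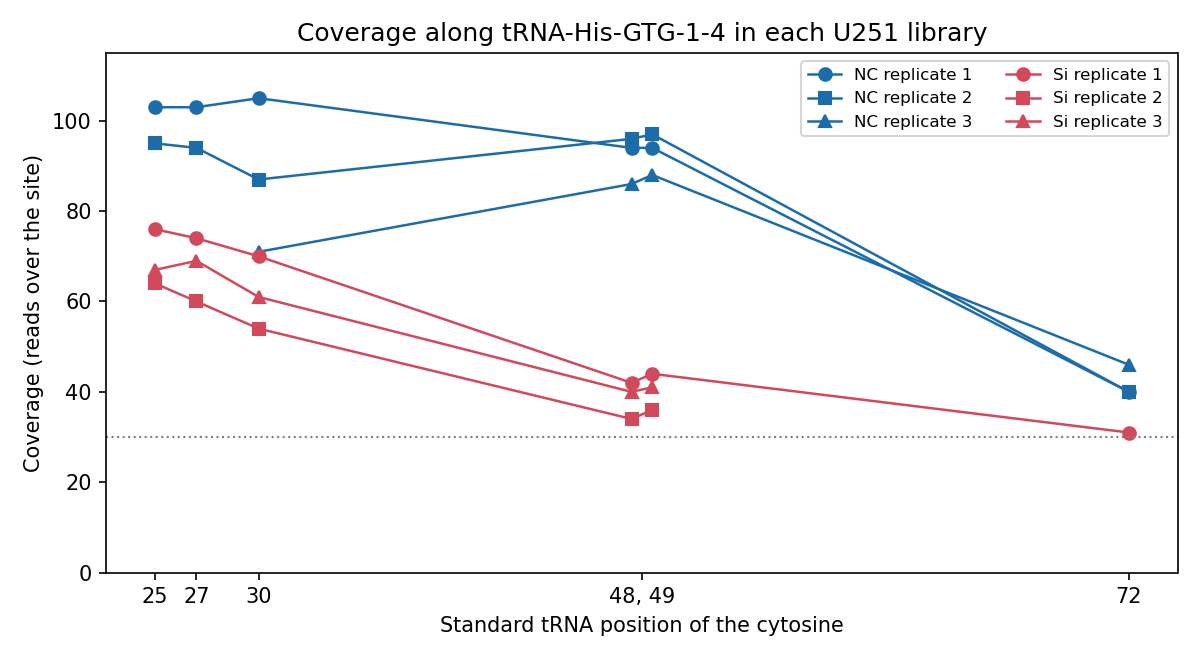
Coverage in reads at each listed position of tRNA-His-GTG-1-4, one line per library, NC in blue and Si in red; the dotted line is the lowest coverage in the lists, 30 reads. At position 49 the NC libraries have 88 to 97 reads and the Si libraries 36 to 44.

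Fitted on its own against the summed coverage of the 21 sites listed in all 6 libraries, each of the 3 tRNA-His sites fell in Si. Position 30 was 0.704-fold (log2 ratio -0.51, adjusted p = 0.000538 in edgeR's test), position 48 was 0.421-fold (log2 ratio -1.25, adjusted p = 2.99e-10) and position 49 was 0.434-fold (log2 ratio -1.20, adjusted p = 2.99e-10). Over all tRNAs 16 of the 21 sites passed, or 76.2%, with 10 higher and 6 lower, so a call in coverage is common in these lists and sites of 1 tRNA share reads. This per-site fit was added after the values were seen. In the comparison by tRNA, the site with the most reads in each library stood for each of 9 tRNAs. For tRNA-His this was position 30 in NC replicate 1 and position 49 in NC replicates 2 and 3. In Si it was position 25 in replicates 1 and 2 and position 27 in replicate 3, so unlike positions were compared. tRNA-His had a mean of 96.7 reads in NC and 69.7 in Si and a log2 ratio of -0.31. Its adjusted p was 0.0805 in edgeR's test, so it did not pass, while 4 of 9 tRNAs, or 44.4%, did. The outcome depends on the site that stands for tRNA-His, with the other tRNAs unchanged. With position 30 the log2 ratio was -0.34 (adjusted p = 0.143 in edgeR's test) and with position 49 it was -0.98 (adjusted p = 0.00132). A further run took every tRNA at the median of its sites listed in all 6 libraries, and tRNA-His then had -0.92 (adjusted p = 4.19e-09).

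The ratio of position 49 to position 30 within a library does not depend on how many reads the tRNA had in all. It was 0.895, 1.11 and 1.24 in NC and 0.629, 0.667 and 0.672 in Si, so the groups did not overlap. The Si mean of 0.656 ± 0.0237 compares with 1.08 ± 0.174 for NC (SD over 3 libraries), a log2 difference of -0.71 ± 0.142 (SE) or 0.611-fold. The exact two-sided permutation p was 0.1, below which 3 against 3 cannot go, and its value adjusted over 5 tRNAs was 0.25. The ratio was chosen after the values were seen.

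The other 4 tRNAs with coverage on both sides in all libraries had their upstream site at position 38, on the far side of the anticodon, and are thus not matched to the span from 30 to 49. In tRNA-Asp-GTC-1-1 the groups did not overlap either, and position 49 over 38 had a mean of 1.24 ± 0.0498 for NC and 0.971 ± 0.0774 for Si (SD over 3 libraries). In tRNA-Gly-GCC-1-1 the means were 0.836 and 0.835, and in tRNA-Gly-GCC-2-1 they were 1.05 and 1.04. tRNA-Asp-GTC-2-5 went slightly the other way, from 0.803 in NC to 0.851 in Si with overlapping groups. That the ratio of tRNA-His fell more than those of the others was not tested.

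**Figure D5:**
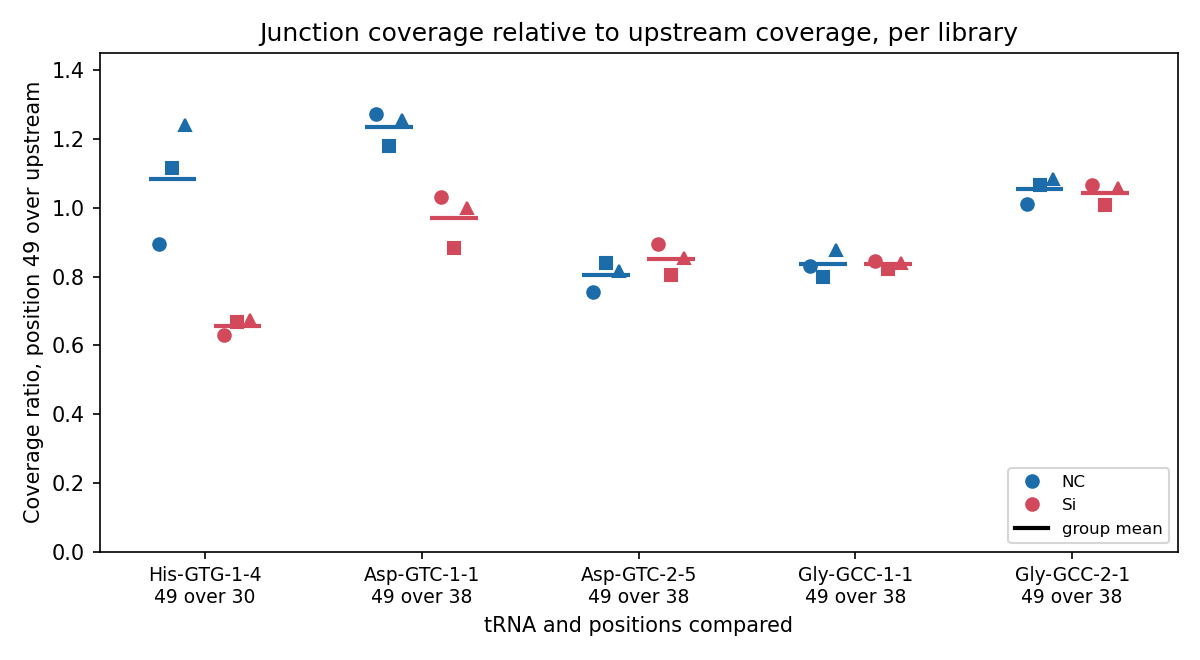
Coverage at position 49 divided by coverage at an upstream site, one point per library, NC in blue and Si in red, with bars at the group means. tRNA-His-GTG-1-4, with position 30 as the upstream site, has 0.895 to 1.24 in NC and 0.629 to 0.672 in Si.

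Toward the acceptor end coverage fell. Position 72 had 0.426, 0.412 and 0.523 of the reads of position 49 in the NC libraries and 0.705 in Si replicate 1. The lists begin at 30 reads, and Si replicate 1 had 44 reads at position 49. A ratio as low as those of NC could therefore not be listed there. Si replicates 2 and 3 had 36 and 41 reads at position 49 and did not list position 72. These ratios thus cannot be compared between the groups. From position 30 to 49 coverage fell in NC replicate 1 and rose in NC replicates 2 and 3, with ratios of 0.895, 1.11 and 1.24. In all NC libraries it was lower at 72, and in Si it had already fallen by 49. Over the 6 libraries together, position 49 was not separated from position 30 in coverage by the exact paired permutation test (mean log2 ratio -0.25 ± 0.419, SD, n = 6, adjusted p = 0.188).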

How the data were processed

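Per the labels' protocols, RNA was extracted with TRIzol, small RNA was enriched, treated with AlkB, converted with bisulfite and made into libraries size-selected for tRNA fragments. cutadapt 1.9.3 and hg38 are named per the submitters' processing notes. Not given in the sources used here are aligner, site caller, filters and treatment of duplicates. Unconverted unmodified cytosines look methylated.

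The counts deposited per site are, per the file headers, reads over it, reads with C and reads with another base, of which tRNA-His had 0. The deposited methylation level is a fraction, recomputed here from the counts as C reads over coverage less reads with another base. The deposited adjusted p-value of being methylated was at most 4.15e-05 at tRNA-His sites and entered no test. Library totals are unknown: listed sites summed to 2020 to 2869 reads a library. Exact binomial intervals and Fisher's exact tests take only counting error into account. The other p-values cover no more than counting error and the spread between these libraries.

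edgeR 4.0.16 tested sites that reached 10 reads in 2 or more libraries per group (R 4.3.3; glmQLFit and glmQLFTest, intercept per library, dispersions without a trend), Benjamini-Hochberg adjusted over 31 sites. Coverage was tested likewise over 9 tRNAs, relative to their sum. limma 3.58.1 (log2 ratios with 1 read added), quasi-binomial regression, Fisher's exact test and DESeq2 1.42.0 were alternatives. Permutation tests used scipy 1.17.1. The scripts were tested on simulated data. The text names every listed tRNA-His-GTG site. Stem regions of other tRNAs were assigned by distance from the anticodon or the last base, and those without standard numbers were kept there. Other tRNAs enter as lists by position, or were named singly after their values were seen. The members and lists were chosen with earlier results of these data known; the coverage ratio and the per-site coverage fit were chosen after the values were seen.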

Additional observations from a re-analysis of the deposited data

Results flagged for a closer look

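Position 72 of tRNA-His-GTG-1-4 entered no comparison between the groups, since 3 NC libraries and 1 Si library listed it. Pooled over these 4 libraries its level was 58.6% (92 of 157 reads, exact binomial 95% interval 50.5% to 66.4%, counting error only). The pooled level is a description. That it lies above 0 follows from the listing, as for every listed site, and is not a finding. With 3 libraries a group, single libraries were not searched for outliers.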

How the results depend on the processing

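At position 49 the log2 odds ratio stayed negative over 14 alternatives (-1.53 to -0.80, adjusted p 0.0631 to 0.791). Among these, a coverage minimum of 30 reads keeps the same 31 sites, since the lists begin there, and so only repeats the main fit. Over all tRNAs the 1 site past the threshold fell to 0 with limma, with quasi-binomial regression and with any 1 library left out (0 to 0). Position 30 turned positive with limma (log2 odds ratio 0.0055), without NC replicate 1 (0.58) and without Si replicate 2 (0.28), with a range of -0.58 to 0.58 over libraries left out, and position 27 without Si replicate 2 (0.086, range -0.66 to 0.086). With NC replicate 3 at the lowest listed level, Si minus NC turned to 0.34 points at position 25 and 0.77 at 27. The cause was not tested. The log2 coverage ratio of tRNA-His passed the threshold in edgeR's test without scaling (-0.47, adjusted p = 0.00833). It passed with at least 40 reads in every library (-0.37, 0.0361, fewer tRNAs tested). With every tRNA at its median site (-0.92, 4.19e-09) or its site of fewest reads (-0.87, 9.45e-08) it passed too. The same held with tRNA-His alone moved to position 49 (-0.98, 0.00132, added later). It did not pass with TMM (-0.26, 0.128), DESeq2 (-0.27, 0.441), the replicate block (-0.31, 0.11) or position 30 (-0.34, 0.143, added later). With 1 library left out it ran from -0.44 to -0.23 (adjusted p 0.0278 to 0.231) and passed without NC replicate 3 and without Si replicate 1. DESeq2 called 2 tRNAs in coverage where edgeR called 4, and 3 to 6 passed with 1 library left out. A dispersion above 3 marked 6 pairs of site and group, 3 of them tRNA-His, in place of 1, and with 1 library left out 0 to 1 passed Fisher's test, over all tRNAs and for tRNA-His. The level at position 30 minus 49 ran from -58.6 to -52.0 points and 48 minus 49 from -65.4 to -62.8, where 5 pairs cannot pass 0.05, and on the log2 ratio scale they were -3.85 and -4.37.

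No pairing of libraries by replicate number was evident: the deviations of same-numbered libraries over 21 sites correlated at 0.06, 0.26 and -0.38. Libraries of unlike number were not compared, so a pairing was not tested. With the replicate number as a block, 1 site and 4 tRNAs passed, and position 49 had a log2 odds ratio of -1.13 (adjusted p = 0.133). Listing from 30 reads leaves lower coverage and levels unseen.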
